A study of Homo sapiens with 3 samples.

Results

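The genes described here are 8 surface antigens studied in Ewing sarcoma, a bone and soft tissue tumour of children and young adults: CD99, IL1RAP, GPR64 (now named ADGRG2), CD276, ENPP1, NCAM1, ROR1 and CDH11. They were chosen by name, with earlier results of these data known. Every locus that carries a member's name was summed, which found all 8 among 22714 gene names. The values come from RNA-seq of TC32 cells, an established line of this tumour that carries the EWS-FLI1 fusion. There were 3 libraries with 1 per group: TC32 with knockdown of EWS-FLI1, TC32 treated with the small molecule YK-4-279 at 3 µM for 15 h, and TC32 labelled as wild-type control. All 3 share the cell line and the growth medium, and all are bulk cultures of 1 line. The labels give DMSO as the vehicle of the compound. They do not say whether the control received DMSO or a control hairpin, nor which hairpin was used or for how long. No value below has a replicate, so no p-value is given, and "higher" and "lower" describe these libraries and not the conditions in general.

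EWS-FLI1 joins the activation domain of the RNA-binding protein EWSR1 to the DNA-binding domain of the ETS factor FLI1. The fusion binds DNA at GGAA motifs, switches some genes on and holds others down, so that part of what a Ewing sarcoma cell shows at its surface is under its control. Surface proteins matter in this tumour because they serve in diagnosis, as CD99 does, and as targets of antibodies and engineered T cells. The 8 genes fall into receptors and receptor-like proteins (IL1RAP, GPR64, ROR1), adhesion molecules (CD99, NCAM1, CDH11), an immune checkpoint ligand (CD276) and an ectoenzyme (ENPP1).

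The stretches upstream of 3 members are printed because the fusion binds the letters GGAA and because these members were the highest (ROR1) and the lowest (IL1RAP) after knockdown of EWS-FLI1 and the highest (GPR64) with YK-4-279, each relative to control. They are the 250 bases before the transcription start as given by RefSeq on build GRCh38.p14, written 5′ to 3′ on the strand of the gene, with each GGAA or its reverse complement TTCC in capitals. The promoter table matched 6 of the 8 members (CD99, IL1RAP, GPR64, CD276, ENPP1 and ROR1). The printed window of IL1RAP lies at chr3:190513835-190514084 on the plus strand, that of ROR1 at chr1:63773767-63774016 on the plus strand and that of GPR64 at chrX:19122469-19122718 on the minus strand.
IL1RAP promoter: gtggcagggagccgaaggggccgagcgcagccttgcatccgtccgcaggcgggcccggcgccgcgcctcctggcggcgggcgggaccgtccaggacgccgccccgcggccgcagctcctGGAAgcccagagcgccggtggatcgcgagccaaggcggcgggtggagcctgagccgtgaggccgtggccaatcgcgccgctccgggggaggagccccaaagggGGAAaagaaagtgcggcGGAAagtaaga
ROR1 promoter: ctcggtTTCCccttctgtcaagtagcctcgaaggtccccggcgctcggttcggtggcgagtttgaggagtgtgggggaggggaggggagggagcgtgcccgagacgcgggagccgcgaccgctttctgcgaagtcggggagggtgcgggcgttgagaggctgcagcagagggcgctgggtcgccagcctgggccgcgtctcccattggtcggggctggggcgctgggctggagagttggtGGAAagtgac
GPR64 promoter: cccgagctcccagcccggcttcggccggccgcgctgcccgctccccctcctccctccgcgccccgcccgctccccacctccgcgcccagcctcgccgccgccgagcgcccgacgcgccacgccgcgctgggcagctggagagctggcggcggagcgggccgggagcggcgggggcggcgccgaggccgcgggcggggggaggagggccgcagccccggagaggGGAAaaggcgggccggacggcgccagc
Counted on both strands with overlaps allowed, GGAA occurs 3 times upstream of IL1RAP, 2 times upstream of ROR1 and 1 time upstream of GPR64. Over 22199 coding promoters of the same length the median is 3, and 92.5% hold at least 1. The tandem GGAAGGAA, the unit of the repeats that the fusion is known to bind, occurs in none of these 3 windows and in 3.17% of all. A match or its absence in these windows describes only the letters there.

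Deposited values are FPKM, fragments normalised to transcript length and to the mapped total of the library, which allow levels of different genes to be set side by side. The libraries differed in overall scale. Against control, the median log2 ratio over compared genes was -2.14 after knockdown and -2.67 with YK-4-279. Values were therefore also scaled so that the median gene is level, by multiplying the knockdown library by 1.44, the YK-4-279 library by 2.12 and the control by 0.325. A log2 difference below is the difference of log2(scaled FPKM + 1), higher and lower mean a difference of 1 or more in size, and 9939 names with a mean deposited FPKM of at least 1 were compared. The standard error (SE) of a difference covers counting error only, from fragment numbers estimated from the steps between low values. The knockdown label was checked on FLI1, which had 2.13 scaled FPKM in the knockdown library, 17.6 with YK-4-279 and 21.4 in the control. Summed levels of 8 markers of the line, FLI1 included, were 110 scaled FPKM after knockdown, 338 with YK-4-279 and 348 in the control. As deposited these sums were 76.4, 160 and 1072 FPKM. STEAP1 was the largest part in the control, at 177 scaled FPKM, with 148 under YK-4-279 and 30.8 after knockdown. Of the 8 markers 6 were lower and 0 higher after knockdown, where 17.0% of all compared names were lower and 17.3% higher. Scaled on a list of housekeeping genes or on summed FPKM, 3 of the markers were lower, and on deposited values 7 were. PAX7, 1 of the 6, passed the filter only through its control value of 6.1 FPKM. NKX2-2 went the other way at 0.43, short of the threshold. Of 7 blood cell markers, 1 reached 1 scaled FPKM in each library (CD68), and none of 5 endothelial markers did. The summed level of 5 epithelial markers was 6.56 scaled FPKM after knockdown, 6.30 with YK-4-279 and 2.53 in the control, with KRT5 at 0 in all 3, and 4.56, 2.97 and 7.80 FPKM as deposited. KRT18, the 1 of them compared, had a log2 difference of 1.18 after knockdown and 0.98 with YK-4-279. The part of these markers in the results below was not tested. Since these are bulk cultures, fewer cells that express a gene and less RNA per cell cannot be told apart.

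The surface antigens did not move as a group. After knockdown of EWS-FLI1, ROR1, CD276 and CDH11 were higher than in the control (CDH11 not on deposited values, where it was -0.53), IL1RAP was lower, and GPR64 and ENPP1 passed the threshold in neither direction. With YK-4-279, GPR64 was higher, though -0.97 on deposited values, and no scaled member was lower. NCAM1 lay under the filter with a mean of 0.169 FPKM, and CD99 was listed at 0. After knockdown 3 of the 6 compared members were higher and 1 was lower, where 17.3% of all compared names were higher and 17.0% lower. That is 1715 names higher and 1689 lower, against 3089 and 534 when the libraries were scaled on a list of housekeeping genes and 301 and 7094 on deposited values. With YK-4-279, 1 of 6 was higher and 0 lower, where 2.41% of all compared names were higher and 1.69% lower. As a description, the median over the 6 compared members was 0.69 after knockdown and 0.33 with YK-4-279, against 0.01 and 0.03 over all compared names. These medians and the count of 3 higher after knockdown include CD276, which was compared only because of its knockdown value. Both comparisons use the same control library.

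**Figure D1:**
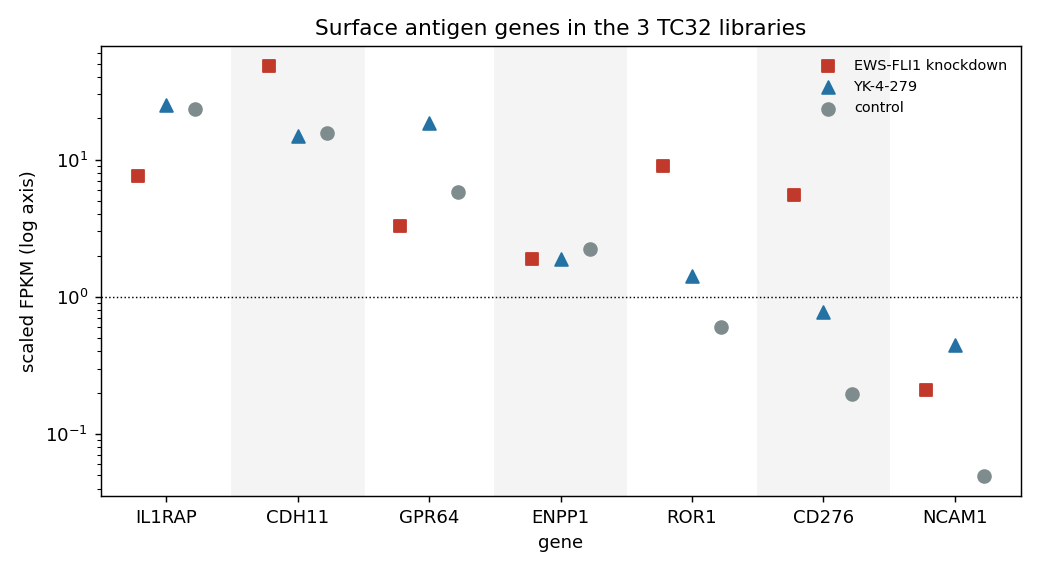
Scaled FPKM (vertical, log axis) of the 7 surface antigen genes with a value, 1 point per library; the dotted line is 1. ROR1, CD276 and CDH11 stand highest in the knockdown library, GPR64 stands highest with YK-4-279, and IL1RAP is lowest in the knockdown library; on deposited values CDH11 and GPR64 are highest in the control.

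CD99, the membrane glycoprotein whose strong staining marks Ewing sarcoma in pathology, could not be measured from these values. It is carried by 2 loci, and both were listed at 0 in the knockdown, YK-4-279 and control libraries. CD99 lies in the pseudoautosomal region, which the X and Y chromosomes share. Of 18 coding genes that the GENCODE release 29 annotation places on both sex chromosomes in this way, all 18 stood in the files on at least 2 loci, and all 18 were at 0 in all 3 libraries. They include SLC25A6, a mitochondrial carrier of adenine nucleotides that cells generally express. The zeros therefore give no level, fold or direction for CD99.

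Relatives of CD99 that are not listed in duplicate did have values. XG, a CD99 relative that carries a blood group antigen and stands on a locus joined with XGPY2, had 0.192 FPKM in the knockdown library, 2.32 with YK-4-279 and 8.97 in the control. Its log2 difference was -1.62 after knockdown, on about 17.7 estimated fragments in that library, and 0.60 with YK-4-279. CD99L2, the other close relative, was higher after knockdown, at 3.32 FPKM in that library, 0.759 with YK-4-279 and 4.64 in the control, but its difference of 1.21 needs the scaling, since the deposited value is lower after knockdown. Of 6 compared genes in a list of CD99 relatives, ligands and associated surface proteins, 3 were higher and 1 lower after knockdown, against 1 and 2 on deposited values. With YK-4-279, 2 were higher and 0 lower, against 0 and 4 on deposited values and 3 and 0 when these were centred on their median. Among all compared names 17.3% were higher and 17.0% lower after knockdown, and 2.41% and 1.69% with YK-4-279. The tetraspanin CD81 was the highest after knockdown at 3.16 and was also higher with YK-4-279 at 1.12. The tetraspanin CD9 was the highest with YK-4-279 at 1.48, and PILRB, a receptor paired with PILRA, the lowest there at 0.04.

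IL1RAP, the accessory protein that IL-1, IL-33 and IL-36 receptors need to signal, was the most abundant measured member in the control. It had 5.25 FPKM in the knockdown library, 11.7 with YK-4-279 and 71.8 in the control. Scaled on the median gene these were 7.56, 24.9 and 23.3, so the knockdown library stood apart and the other two lay close together. The log2 difference was -1.51 after knockdown (SE 0.05, 2.84-fold lower) and 0.09 with YK-4-279 (SE 0.04). Only 6.33% of compared names had a lower difference after knockdown. Abundant genes ran low in that library: in the fourth of 5 equal groups by level, where IL1RAP lies, the median was -0.42. It was -0.89 in the highest group. In the 2 lowest groups, where CD276 and ROR1 lie, it was 0.45 and 0.48, so scarcer genes ran high. Scaled on the housekeeping list or on summed FPKM, IL1RAP was still lower after knockdown but short of the threshold, at -0.92 and -0.96.

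Few partners of IL1RAP were measured above the filter. Of 24 genes of the IL-1 receptor family, its ligands and its adaptors, 4 were compared and none passed the threshold in either comparison. After knockdown 2 were higher on the housekeeping or summed FPKM scale, 3 were lower on deposited values and 1 was lower on the scale of all named genes. With YK-4-279 all 4 were lower on deposited values, and in each comparison 1 was higher when these were centred on their median. These 4 were the adaptor MYD88, the kinases IRAK1 and IRAK4 and the ubiquitin ligase TRAF6. IRAK1 was the highest after knockdown at 0.86 and IRAK4 the lowest at -0.85. With YK-4-279 MYD88 was the highest at 0.63 and IRAK4 the lowest at -0.35. The ligand-binding chain IL1R1 had 0.134 FPKM in the knockdown library, 0.0276 with YK-4-279 and 0.0109 in the control.

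IL1RAP has also been tied to cystine uptake in Ewing sarcoma, through the transporter that pairs SLC7A11 with SLC3A2. Of 6 genes of cystine uptake and glutathione synthesis and use, 3 were higher and 0 lower after knockdown, and 1 was higher and 1 lower with YK-4-279. The shares of all compared names were 17.3% and 17.0% after knockdown, and 2.41% and 1.69% with YK-4-279. On deposited values 0 of these genes were higher and 3 lower after knockdown. With YK-4-279 all 6 were lower as deposited, or 2 higher and 1 lower when centred on the median. After knockdown 5 were higher and 0 lower on the housekeeping or summed FPKM scale. On the scale of all named genes above 0, 0 were higher and 1 lower in each comparison. SLC3A2 had 16.3 FPKM in the knockdown library, 9.51 with YK-4-279 and 22.2 in the control, and its log2 differences of 1.58 and 1.36 both passed the threshold. SLC7A11 stood at 1.15 and 0.80, and GCLC, the catalytic subunit of glutathione synthesis, at 1.14 and 0.14. Glutathione synthetase GSS was the lowest in both comparisons, at -0.44 after knockdown and -1.07 with YK-4-279. Scaled on the median gene, IL1RAP lay below the control in the knockdown library and SLC3A2, SLC7A11 and GCLC above it, while GSS lay below it. As deposited all of these genes lay below the control there.

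GPR64, an orphan receptor of the adhesion G protein-coupled class best known from the epididymis, was lower than the control after knockdown and higher with YK-4-279 when scaled on the median gene, and below the control in both treated libraries as deposited. It had 2.29 FPKM in the knockdown library, 8.74 with YK-4-279 and 18.0 in the control, or 3.30, 18.5 and 5.86 after scaling. After scaling the knockdown library was thus the lowest and the YK-4-279 library the highest. The log2 difference was -0.67 after knockdown (SE 0.06), short of the threshold, and 1.51 with YK-4-279 (SE 0.04, 2.84-fold higher), above 98.7% of compared names. On deposited values the differences were -2.53 after knockdown and -0.97 with YK-4-279, so the direction with YK-4-279 rests on the scale between libraries. The knockdown difference shrank to -0.16 on the housekeeping scale and -0.19 on summed FPKM. The ratio of GPR64 to IL1RAP within a library, which needs no such scale, was 0.437 after knockdown, 0.744 with YK-4-279 and 0.251 in the control.

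Other adhesion receptors of this class were mostly under the filter. Of 31 listed, 7 were compared. After knockdown 3 were higher and 0 lower, where 17.3% and 17.0% of all compared names were, against 1 and 2 on deposited values. With YK-4-279 none passed the threshold, against 5 lower on deposited values and 3 higher when these were centred on their median. LPHN2, a latrophilin, was the highest after knockdown at 2.69, with 6.53 FPKM in that library, 0.332 with YK-4-279 and 1.87 in the control. GPR126, which Schwann cells need to form myelin, stood at 2.03 and GPR125 at 1.51. BAI3 was the lowest after knockdown at -0.40. With YK-4-279 the values ran from -0.71 for the latrophilin LPHN1 to 0.47 for CD97. LPHN1 had 0.414 FPKM in the knockdown library, 0.114 with YK-4-279 and 3.16 in the control. It passed the filter only through its control value, so a high level there was a condition of its being compared.

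ROR1, a receptor-like kinase of embryonic tissues that binds WNT5A, had the largest log2 difference of the members after knockdown. It had 6.25 FPKM in the knockdown library, 0.669 with YK-4-279 and 1.87 in the control, or 9.00, 1.42 and 0.607 after scaling. The knockdown value thus lay far above both others, and it was above the control also as deposited. The log2 difference was 2.64 after knockdown (SE 0.05, 6.22-fold higher) and 0.59 with YK-4-279 (SE 0.07). Without a pseudocount the scaled ratio was 14.8-fold after knockdown and 2.33-fold with YK-4-279, so ROR1 passes the threshold with YK-4-279 on that scale. Within its own library ROR1 stood above 62.4% of compared names after knockdown, 17.2% with YK-4-279 and 5.69% in the control.

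Of 18 genes of WNT5A signalling and planar polarity 11 were compared, and 7 were higher and 0 lower after knockdown, where 17.3% of all compared names were higher. Of the 7, PRICKLE1 and VANGL2 passed the filter only through their knockdown values. Under the scalings tried this was 4 to 9 higher and 0 lower, except on deposited values, where 1 was higher and 2 were lower. None passed the threshold with YK-4-279, against 9 lower on deposited values and 4 higher when these were centred on their median. The median was 1.27 after knockdown and 0.14 with YK-4-279. PRICKLE1, a planar polarity protein, was the highest after knockdown at 2.92, and the receptors FZD7 and RYK stood at 2.42 and 1.88. The ligand WNT5A was the lowest after knockdown at -0.22, with 4.18 FPKM in that library, 3.18 with YK-4-279 and 22.1 in the control. With YK-4-279 RYK was the highest at 0.76 and FZD5 the lowest at -0.46. ROR2, the second receptor of the family, had 0.305 FPKM after knockdown, 0.197 with YK-4-279 and 0.178 in the control and was under the filter.

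CD276, the checkpoint ligand also called B7-H3, was scarce in the control. It had 3.84 FPKM in the knockdown library, 0.363 with YK-4-279 and 0.598 in the control, which rest on about 609, 80.0 and 24.9 estimated fragments. Scaled values were 5.53, 0.769 and 0.194, with the knockdown library again far above both others. The log2 difference was 2.45 after knockdown (SE 0.07, 5.47-fold higher) and 0.57 with YK-4-279 (SE 0.08). CD276 passed the filter only through its knockdown value, so a high level there was a condition of its being compared. Without a pseudocount the scaled ratio was 28.5-fold after knockdown and 3.96-fold with YK-4-279, since the added 1 shrinks the differences of a scarce gene. The 3.96-fold is a ratio of values near the floor, and the floors differ. Loci that carry no gene name had a median of 0.150 FPKM with YK-4-279 and 0.0857 in the control. Scaling multiplies the first by 2.12 and the second by 0.325, so no direction is drawn for CD276 with YK-4-279.

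The other compared members of the B7 and butyrophilin family, which contact T cells, did not pass the threshold in either comparison, though 4 were higher after knockdown on the housekeeping scale and 4 lower on deposited values, and all 6 were lower with YK-4-279 on deposited values. Of 14 listed, 6 were compared, with a median of 0.85 after knockdown and 0.05 with YK-4-279. After knockdown BTN3A3 was the highest at 0.95 and BTN3A2 the lowest at -0.80. With YK-4-279 BTN2A2 was the highest at 0.44 and BTN3A2 again the lowest at -0.28. The ligand of PD-1, CD274, was under the filter at 1.51 FPKM in the knockdown library, 0.351 with YK-4-279 and 0.422 in the control.

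ENPP1, an ectoenzyme that splits ATP and the immune messenger cGAMP outside the cell, was nearly level across the libraries once they were scaled on the median gene. It had 1.30 FPKM in the knockdown library, 0.897 with YK-4-279 and 6.87 in the control, or 1.88, 1.90 and 2.23 after scaling. The log2 difference was -0.17 after knockdown (SE 0.05) and -0.16 with YK-4-279 (SE 0.05), and 0.01 between YK-4-279 and knockdown. On deposited values the differences were -1.77 after knockdown and -2.05 with YK-4-279, both past the threshold. Against names of like level the knockdown difference was -0.65, on the housekeeping scale it was 0.26, and with no replicate none of these values shows that ENPP1 was unaffected.

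The ectonucleotidase that acts after enzymes of the ENPP and ENTPD classes was far from level. NT5E, also called CD73, makes adenosine from AMP at the cell surface. It had 31.9 FPKM in the knockdown library, 0.584 with YK-4-279 and 0.0733 in the control, where this rests on about 4.03 estimated fragments. Its log2 difference was 5.52 after knockdown and 1.13 with YK-4-279, the highest of its list in both comparisons. Like CD276, NT5E passed the filter only through its knockdown value, so a high level there was a condition of its being compared. Of 19 genes of extracellular nucleotides and phosphate 9 were compared. After knockdown 3 were higher and 0 lower, where 17.3% and 17.0% of all compared names were. On deposited values 1 was higher and 5 lower, and NT5E was the 1 still higher. With YK-4-279 NT5E was the 1 gene past the threshold, against 8 lower and 0 higher on deposited values. The others higher after knockdown were TMEM173, the cGAMP sensor STING, at 1.40 and the phosphate carrier SLC20A1 at 1.07. ENPP3 was the lowest after knockdown at -0.84 and TMEM173 the lowest with YK-4-279 at -0.29.

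CDH11, a cadherin of osteoblasts and mesenchymal cells that joins like cells, was the most abundant measured member after knockdown. It had 33.3 FPKM in the knockdown library, 7.02 with YK-4-279 and 48.5 in the control, or 47.9, 14.9 and 15.8 after scaling. As deposited the control was thus the highest, and after scaling the knockdown library was. The log2 difference was 1.54 after knockdown (SE 0.02, 2.92-fold higher) and -0.08 with YK-4-279 (SE 0.03), and after knockdown it was -0.53 on deposited values. The ratio of CDH11 to IL1RAP within a library was 6.33 after knockdown, 0.598 with YK-4-279 and 0.676 in the control. The summed level of 6 fibroblast markers was 57.7 scaled FPKM after knockdown, 28.4 with YK-4-279 and 26.5 in the control, with 5, 4 and 3 of them at 1 or more, and none at 0. As deposited the sums were 40.1, 13.4 and 81.5 FPKM. LUM and FAP made up most of the knockdown sum, at 36.0 and 14.2 scaled FPKM in that library and 13.7 and 3.18 in the control. DCN went the other way, at 1.70 scaled FPKM after knockdown and 8.82 in the control, and THY1 had 0.0381 after knockdown and 0.154 in the control. The part of these markers in the CDH11 value was not tested.

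Of 25 listed cadherins and catenins 7 were compared beside CDH11. After knockdown 1 was higher and 1 lower, where 17.3% and 17.0% of all compared names were, against 0 and 6 on deposited values. CDH12, a neuronal cadherin, was the lowest at -2.61, with 1.08 FPKM in the knockdown library, 7.38 with YK-4-279 and 45.1 in the control. CTNNA1, the catenin that links cadherins to actin, was the highest at 1.12. With YK-4-279 none passed the threshold, against 6 lower on deposited values and 1 higher when these were centred or on the upper quartile scale, and values ran from -0.30 for CDH8 to 0.88 for CDH7. Scaled on the median gene, CDH11 and CDH12 lay on opposite sides of the control after knockdown, and as deposited both lay below it.

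NCAM1, the neural adhesion molecule CD56, was at the edge of detection. It had 0.145 FPKM in the knockdown library, 0.211 with YK-4-279 and 0.153 in the control, on about 40.0, 81.2 and 11.1 estimated fragments. These values lay above 52.7%, 84.2% and 72.1% of the loci that carry no gene name, so NCAM1 was not set apart from them, whereas the 6 compared members lay above 97.4% or more of those loci in every library. No direction is drawn for it. Among other immunoglobulin adhesion molecules, contactins and the enzymes that add polysialic acid to NCAM1, 4 of 20 were compared. All 4 were higher after knockdown, where 17.3% of all compared names were higher, against 1 higher and 0 lower on deposited values. None passed the threshold with YK-4-279. There 2 were lower on deposited values, 3 were higher when these were centred on their median and 1 was higher on the upper quartile scale. MCAM, also called CD146, was the highest after knockdown at 3.97, with 15.3 FPKM in that library, 0.753 with YK-4-279 and 1.45 in the control, and CNTN1 was the lowest at 1.58. With YK-4-279 ALCAM was the highest at 0.92 and CNTN1 the lowest at -0.07.

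**Figure D2:**
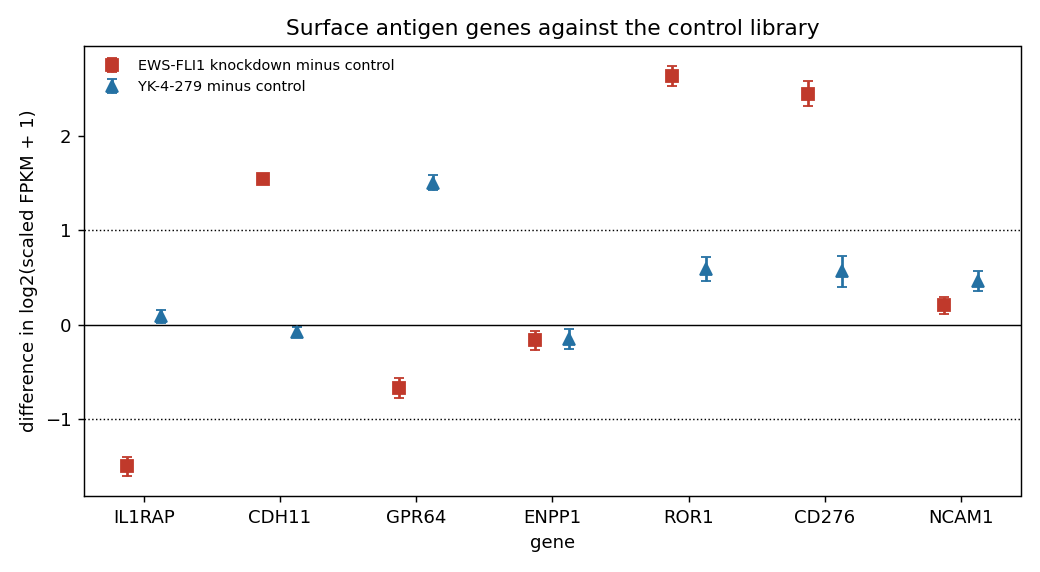
Difference in log2(scaled FPKM + 1) from the control for each surface antigen gene; squares are the knockdown library, triangles the YK-4-279 library, bars are 95% counting intervals, and dotted lines mark the threshold of 1. ROR1 (2.64), CD276 (2.45) and CDH11 (1.54) lie above the upper line after knockdown and GPR64 (1.51) with YK-4-279, while IL1RAP (-1.51) lies below the lower line after knockdown; on deposited values CDH11 (-0.53) and GPR64 (-0.97) change sign.

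**Figure D3:**
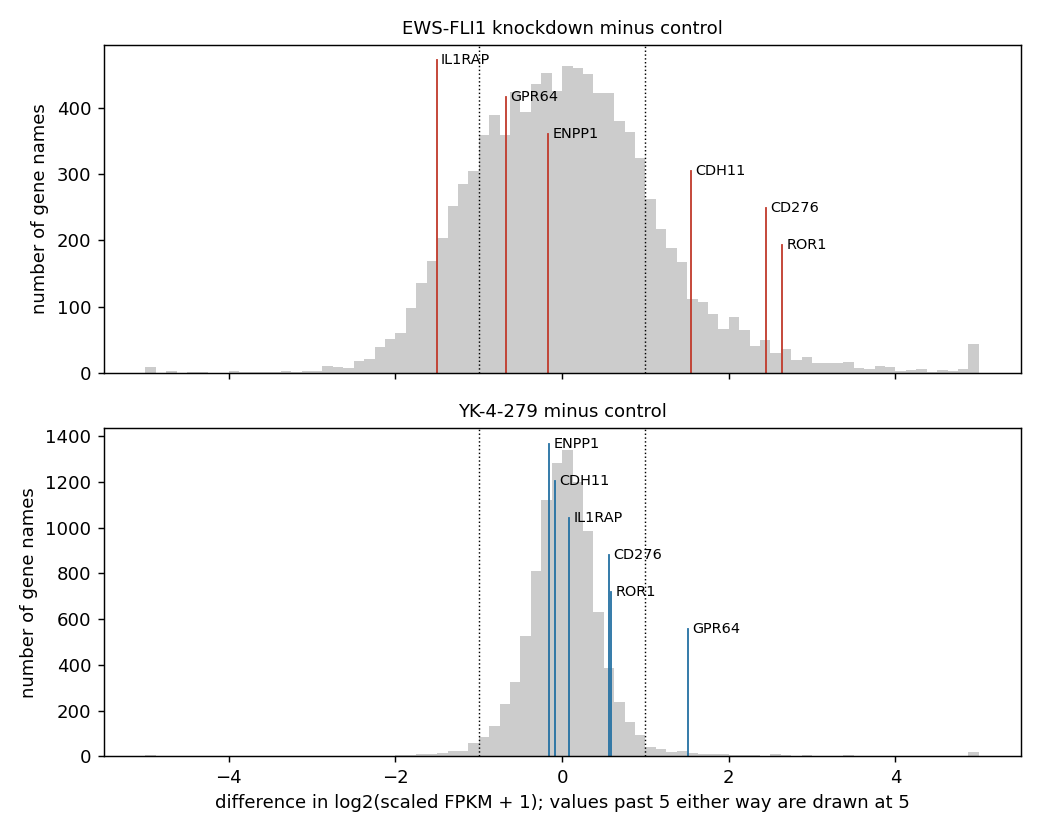
Histograms of the log2 difference of 9939 compared gene names, with the 6 compared surface antigens as vertical lines whose height has no meaning; dotted lines mark the threshold of 1. After knockdown the names spread widely and 4 members lie past a line, while with YK-4-279 the spread is narrow and GPR64 is the 1 member past a line, a direction that deposited values reverse (-0.97).

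The order of the members by level differed between the libraries. In the knockdown library it ran CDH11, ROR1, IL1RAP, CD276, GPR64, ENPP1 and NCAM1. With YK-4-279 it ran IL1RAP, GPR64, CDH11, ENPP1, ROR1, CD276 and NCAM1, and in the control IL1RAP, CDH11, GPR64, ENPP1, ROR1, CD276 and NCAM1. The YK-4-279 order is that of the control with GPR64 and CDH11 exchanged. Neighbours such as ROR1 and IL1RAP after knockdown, whose FPKM stood in a ratio of 1.19, cannot be ordered firmly without replicates. The ratio of ROR1 to IL1RAP was 0.0569 with YK-4-279 and 0.0260 in the control. These orders use FPKM within a library and do not depend on the scale between libraries.

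**Figure D4:**
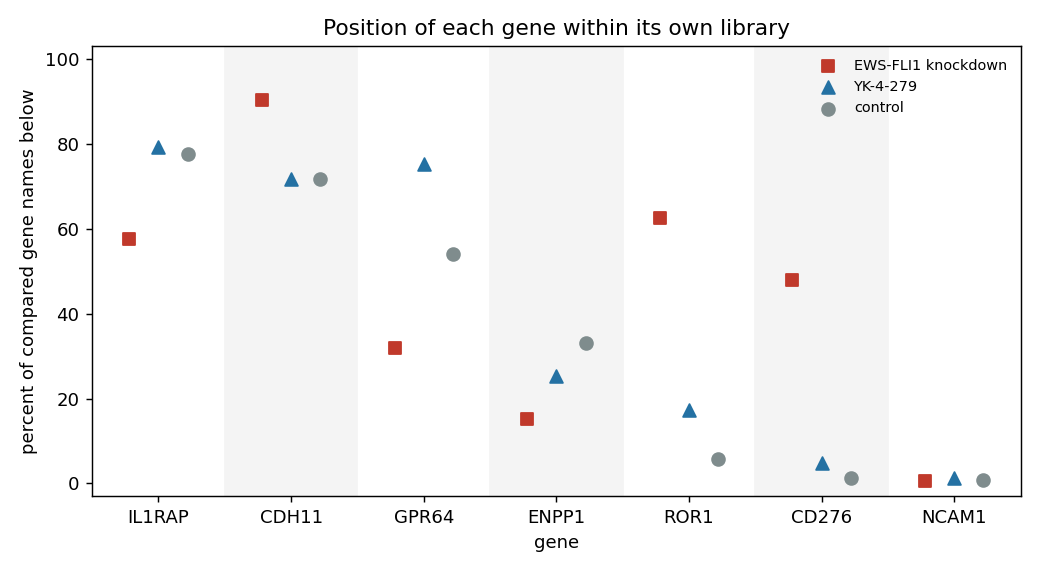
Percent of the 9939 compared gene names that lie below each surface antigen gene in the same library (vertical), 1 point per library. ROR1 (62.4%) and CD276 (47.8%) stand far higher in the knockdown library than in the YK-4-279 library (17.2% and 4.78%) or the control (5.69% and 1.32%), and IL1RAP (57.5%) stands lower in it.

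Set directly against each other, the YK-4-279 and knockdown libraries differed at 5 of the 6 compared members. GPR64 and IL1RAP were higher with YK-4-279, at 2.18 (SE 0.05) and 1.60 (SE 0.05), and ROR1, CD276 and CDH11 were lower, at -2.05 (SE 0.06), -1.88 (SE 0.09) and -1.62 (SE 0.02). These counts include CD276, which was compared only because of its knockdown value, so the filter favoured its lower value with YK-4-279. With a pseudocount of 5, CD276 was short of the threshold here at -0.87. Among all compared names 15.3% were higher and 14.5% lower with YK-4-279. The 2 treatments differ in kind, so their doses cannot be matched. The length of the knockdown is not given in the labels, so whether the times match is not known.

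For each member the 2 single-gene names with the most similar pair of log2 differences were found, among names of like level and over these 3 libraries. They were THG1L and TATDN3 for IL1RAP, RARRES3 and EFEMP2 for CD276, and PABPC1L and MYH9 for ROR1. For CDH11 they were NREP and AHCYL1, for ENPP1 IFI35 and ZNF200, and for NCAM1 ARNTL2 and CDKN2D. The rule for like level was loose for scarce genes. In the control ARNTL2 had 0.69 scaled FPKM and NCAM1 0.05, so nothing is drawn from the NCAM1 pair. The nearest to GPR64, EPB41 and ZNF468, lay at a distance of 0.34 and 0.35 log2 units, while the nearest to each other member with a value lay within 0.09. EPB41 had 2.07 scaled FPKM after knockdown, 9.91 with YK-4-279 and 3.86 in the control.

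Further surface targets described in Ewing sarcoma lay on both sides of the control after knockdown, when scaled on the median gene. Of 32 listed 19 were compared, 10 were higher and 4 lower after knockdown, against 13 and 1 on the housekeeping scale and 0 and 7 on deposited values. With YK-4-279, 2 were higher and 0 lower, against 0 and 16 on deposited values and 5 and 0 when these were centred on their median. The shares of all compared names were 17.3% higher and 17.0% lower after knockdown, and 2.41% and 1.69% with YK-4-279. Among the further targets 4 were lower after knockdown. The lower ones were STEAP1, a known fusion target, at -2.49 and its relative STEAP2 at -1.46, with the prostaglandin receptor PTGER3 at -1.13 and the lipase LIPI at -1.12. STEAP1 had 21.4 FPKM in the knockdown library, 69.9 with YK-4-279 and 545 in the control. The highest after knockdown was the death receptor TNFRSF10B at 2.76, with 25.1 FPKM in that library, 3.55 with YK-4-279 and 13.7 in the control. KIT, the receptor of stem cell factor, was higher in both comparisons at 2.75 and 2.21 and was the highest with YK-4-279. The death receptor FAS was the other gene higher there, at 1.46, and ULBP3, a ligand of the activating receptor NKG2D on a locus joined with RAET1K, was the lowest at -0.95.

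**Figure D5:**
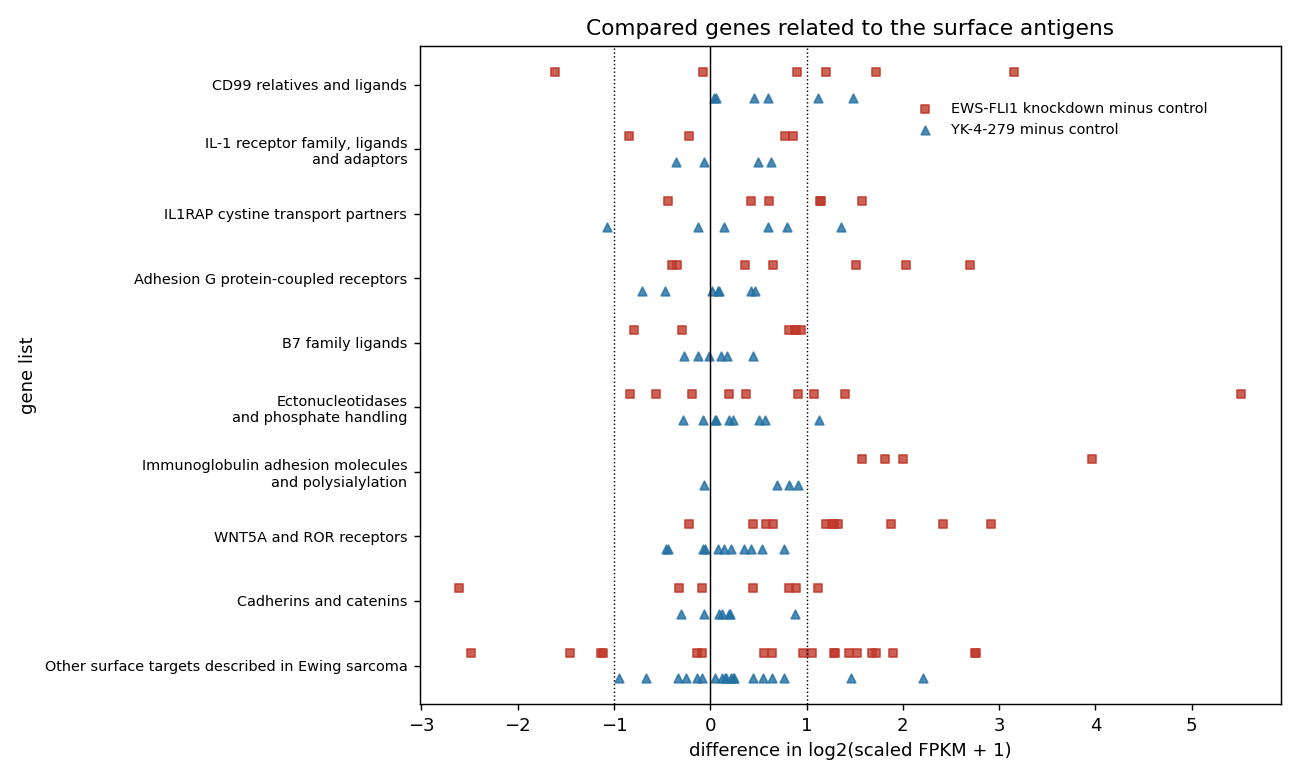
Difference in log2(scaled FPKM + 1) from the control for the compared genes of 10 lists related to the surface antigens, 1 point per gene; squares are the knockdown library, triangles the YK-4-279 library, and dotted lines mark the threshold of 1. NT5E (5.52) is the point furthest right, and few genes pass a line with YK-4-279; on deposited values, not plotted, the median of every list except the immunoglobulin adhesion molecules lies below 0 after knockdown.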

How the data were processed

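RNA was profiled in 3 libraries of TC32 cells, and the authors deposited FPKM per locus in each. Per the labels' protocols, cDNA was made with a SMARTer kit, fragmented and amplified by PCR. CASAVA 1.8.2, TopHat, Cufflinks 2.2.1 and build GRCh37 (hg19) are named in the submitters' processing notes. Not given in the sources used here are the depth, the annotation, any scaling between libraries and the treatment of multiply mapped reads. The column of the knockdown library reads dEF and its title shEF, and its group was taken from the labels.

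Loci of 1 name were summed (24751 named loci, 22714 names) with pandas 2.3.3 and numpy 2.4.6, and figures drawn with matplotlib 3.10.9. Each library was scaled on the median, over compared names above 0 in all 3, of its ratio to the geometric mean of the 3. A pseudocount of 1 was added before log2. The scaling and calls were also run on simulated libraries. These shared the same profile apart from a known scale and a small set of genes changed equally up and down. That setting favours the scaling, so it does not test it where many genes differ, as after knockdown. The FPKM of 1 fragment on 1 kb was estimated as 0.0170 after knockdown, 0.0122 with YK-4-279 and 0.0644 in the control, from the lowest values of short olfactory receptor genes. Estimated fragments use the median coding transcript length of GENCODE release 29, a different build, and are approximate. SE cover counting error only.

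The members and lists were chosen with earlier results of these data known. Named genes are the 8 members, the highest and lowest compared gene of each related list in each comparison with control, genes past the threshold in both, the 2 names most like each member, and FLI1. Other genes named in the text, such as CD274, CD99L2, IL1R1, ROR2, FAS, SLC7A11, VANGL2, KRT18, LUM, THY1 and the further genes past the threshold, were picked after their values were seen. Alternatives were other pseudocounts, scalings, filters and thresholds.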

Additional observations from a re-analysis of the deposited data

Results flagged for a closer look

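Scaled on the median gene, GPR64 lay on opposite sides of the control in the 2 treated libraries, each by more than 1.5-fold, at -0.67 after knockdown of EWS-FLI1 and 1.51 with YK-4-279. The knockdown value was under 1.5-fold on the housekeeping scale (-0.16), on summed FPKM (-0.19) and with a pseudocount of 5 (-0.39). On deposited values both libraries lay below the control, at -2.53 and -0.97. With 1 library per group, and the control shared by both comparisons, this difference of effects was not tested.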

How the results depend on the processing

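No paired analysis was possible because each group has 1 library, and for the same reason no library could be left out. In the knockdown comparison ROR1 and CD276 were higher under all 14 other settings of scale, pseudocount, filter or row matching. IL1RAP was lower under 12 of 14. The filter and row matching settings leave each member's difference as reported, so their agreement is no support. A mean FPKM of at least 5 leaves ROR1 and CD276 out of the compared names. CD276 passed the main filter only through its knockdown value. Against the reported 3 members higher after knockdown, 1 was with a mean FPKM of at least 5, which leaves 3 members to compare. Against 1 lower after knockdown, 3 were on deposited values, 0 when scaled on the housekeeping list or on summed FPKM, and 2 at a threshold of 1.5-fold or when scaled on all named genes above 0, a setting chosen after seeing the data. CDH11 was short of the threshold after knockdown in that last setting, at 0.91, and -0.53 as deposited. With YK-4-279, against 1 member higher, 3 were with a pseudocount of 0.1, without one, or with deposited differences centred on their median, 2 at 1.5-fold and 0 on deposited values. There GPR64 was -0.97 and 3 members were lower, against 0. Between YK-4-279 and knockdown, 3 members were lower, against 1 under the filter of 5 and 2 with a pseudocount of 5. The cause of these shifts was not tested, except that the stricter filter leaves fewer members. The median of all compared names was -1.76 after knockdown and -2.20 with YK-4-279 on deposited values. It was 0.50 and 0.19 when scaled on the housekeeping list, 0.47 and 0.02 on summed FPKM, -0.50 and -0.38 on all named genes above 0, and -0.03 and 0.20 on the upper quartile. Over all compared names, 1715 were higher after knockdown, against 661 with a pseudocount of 5, 3035 on summed FPKM, 662 with a mean FPKM of at least 5, 2934 at 1.5-fold and 913 on all named genes above 0. There 1689 were lower, against 1111, 600, 1610, 2947 and 3361 in the same order, and 1005 when centred on names of like level. With YK-4-279, 240 were higher and 168 lower, against 629 and 288 with a pseudocount of 0.1, 118 and 78 with 5, 693 and 306 with none, 57 and 9160 on deposited values and 1225 and 446 when these were centred. The other counts there were 369 and 98 on the upper quartile, 840 and 712 at 1.5-fold, 155 and 820 on all named genes above 0, 91 lower on the housekeeping list, and 363 higher with no filter and 136 with a mean of at least 5. Between YK-4-279 and knockdown, 783 were higher and 2365 lower on the housekeeping list and 530 and 2796 on summed FPKM, against 1516 and 1442. There 505 were higher on deposited values and 908 when centred on names of like level, 567 were lower with a pseudocount of 5 and 655 with a mean of at least 5, and 2751 were higher and 2659 lower at 1.5-fold. Low fragment numbers limit NCAM1 and, in the control, CD276.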
